A study of Mus musculus with 6 samples.

Results

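Among 3104 REST peaks of the mouse embryonic stem cell line E14, 563 carried a peak of RCOR3 and a peak of SIN3B and no peak of RCOR1, RCOR2 or SIN3A. These sites were chosen by the positions of the deposited peaks: a cofactor counted as present when the midpoint of one of its peaks lay less than 400 bp from the REST midpoint on the same chromosome. REST peaks with midpoints between 165.3 and 165.4 Mb on chromosome X, a stretch crowded with peaks of all 6 proteins, were left out, which leaves 3080 REST peaks. The 563 sites made up 18.3% of these (95% Clopper-Pearson interval 16.9 to 19.7%) and 69.9% (66.6 to 73.0%) of the 806 REST peaks that had both RCOR3 and SIN3B. They used 541 of the 3744 RCOR3 peaks (14.4%) and 541 of the 5318 SIN3B peaks (10.2%).

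The study mapped REST and 5 of its cofactors by chromatin immunoprecipitation and sequencing (ChIP-seq), with 1 library for each protein and cells of passages 15 to 18 throughout. REST and SIN3A were precipitated, from E14 cells whose labels name no transgene, with antibodies against the proteins themselves. RCOR1, RCOR2, RCOR3 and SIN3B were precipitated with a V5 antibody from stable E14 lines that carry a tagged transgene, expressed at a low level per the series' design text. The SIN3B transgene is labelled with a VG tag, although its antibody is given as V5. The RCOR3 and SIN3B peaks described here are therefore those of introduced, tagged proteins, each in its own cell line, and the REST peaks come from cells labelled with neither transgene. The lists do not show whether RCOR3 and SIN3B occupy 1 site in the same cell.

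REST, also called NRSF, is a zinc finger repressor that recognises the RE1 element and keeps neuronal genes silent outside neurons and in stem cells. It works through 2 separate repression domains. The amino-terminal domain recruits SIN3 scaffold proteins, of which SIN3B is one, and the carboxy-terminal domain recruits CoREST proteins, of which RCOR3 is one. Both arms bring histone deacetylases to DNA, and the CoREST arm also brings the histone demethylase LSD1. A REST site with RCOR3 and SIN3B thus holds a peak of 1 protein from each arm, while SIN3A is the paralogue of SIN3B, and RCOR1 and RCOR2 are the paralogues of RCOR3.

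Each peak carries a score that the authors assigned and whose meaning is not stated, so scores served to rank peaks within their own list. A percentile is the position of a peak in its list, with 100 at the highest score and tied peaks given 1 shared value. Because the sites were chosen from these lists, and each protein had 1 library, the values below are descriptions and no test was made of any difference. Intervals are exact 95% Clopper-Pearson intervals and cover counting error only. Positions are on mouse build mm8 as deposited. Neither sequence nor genes of mm8 were used here, so sites are named by position.

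The sites with RCOR3 and SIN3B only lay high in the REST list but below its summit. Their REST scores spanned 8.89 to 212.18. The median was 52.15, and the quartiles were 38.2 and 69.3. The median percentile was 83.0 (quartiles 72.8 and 90.1), and 392 of the 563 sites (69.6%, 65.6 to 73.4%) stood in the highest 25% of the REST list. The 30 highest REST peaks included none of them. All 30 carried RCOR3 and SIN3B, but each also had a further cofactor: SIN3A was present at 28, RCOR2 at 24 and RCOR1 at 20. The first site with RCOR3 and SIN3B only stood at REST rank 31, and 22 such sites were among the highest 100 REST peaks, 144 among the highest 310 and 262 among the highest 500.

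**Figure D1:**
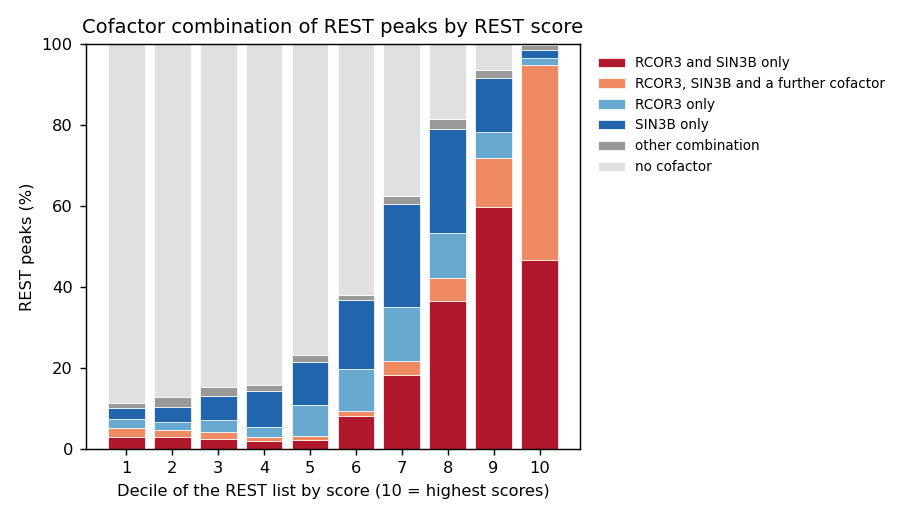
Share of REST peaks (y axis, %) in each decile of the REST list by score (x axis, decile 10 holds the highest scores), divided by the cofactors present. Sites with RCOR3 and SIN3B only (dark red) make up 2.85% of decile 1, 59.6% of decile 9 and 46.6% of decile 10. Sites with RCOR3, SIN3B and a further cofactor make up 48.2% of decile 10.

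Across the REST list the combination was scarce in the lower deciles and commonest in decile 9. It was found at 10 of 351 REST peaks (2.85%, 1.37 to 5.18%) in decile 1 and at 7 of 308 (2.27%) in decile 5. It then came to 56 of 308 (18.2%) in decile 7, 113 of 309 (36.6%) in decile 8 and 186 of 312 (59.6%, 53.9 to 65.1%) in decile 9, whose REST scores ran from 47.41 to 68.16. In decile 10 it stood at 145 of 311 (46.6%, 41.0 to 52.3%). There 295 of the 311 REST peaks had both RCOR3 and SIN3B, and 150 of these also had SIN3A, RCOR1 or RCOR2. In decile 9, 38 of the 224 REST peaks with both had a further cofactor. The plot of combinations by REST score shows this change between deciles 9 and 10.

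Read against the other REST peaks, the sites with both proteins stood between those with a single one and those with more. The 56 REST peaks with SIN3A, RCOR1 or RCOR2 but not both RCOR3 and SIN3B are not in this comparison. The median REST score was 13.63 at the 1676 REST peaks with no cofactor, 27.86 at the 187 with RCOR3 only, 29.93 at the 355 with SIN3B only, 52.15 at the 563 with RCOR3 and SIN3B only, and 88.9 at the 243 with RCOR3, SIN3B and a further cofactor. The quartiles of the 563 (38.2 and 69.3) overlapped those of the last group (53.8 and 129) and, at their lower end, those of SIN3B only (20.1 and 40.3). The cofactor scores were ordered in the same way. The median RCOR3 percentile was 49.3 with RCOR3 only, 75.7 with RCOR3 and SIN3B only and 93.7 with a further cofactor, and the median SIN3B percentile was 49.5 with SIN3B only, 70.4 with both and 91.0 with a further cofactor. Since the presence of a peak depends on its score, these orders share their source with the choice of sites.

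In the RCOR3 and SIN3B lists the same sites were spread more widely than in the REST list. RCOR3 scores at the sites reached down to 9.2, the lowest score of that list, and up to 44.33 (median 15.89). SIN3B scores reached down to 9.12, likewise the lowest of its list, and up to 66.32 (median 16.58). In the highest 25% of the list stood 286 sites for RCOR3 (50.8%, 46.6 to 55.0%) and 245 for SIN3B (43.5%, 39.4 to 47.7%). In the lowest 25% stood 64 sites for RCOR3 (11.4%), 63 for SIN3B (11.2%) and 24 for REST (4.26%). The extreme top of both cofactor lists lay elsewhere: 56 RCOR3 peaks and 58 SIN3B peaks scored above the first one at these sites. Of the highest 100 peaks of each list, 11 for RCOR3 (5.62 to 18.8%) and 2 for SIN3B (0.243 to 7.04%) were at these sites. The share of the whole list, 14.4% for RCOR3 and 10.2% for SIN3B, lay inside the first interval and above the second. Further down, the sites held 157 of the highest 500 RCOR3 peaks (31.4%) and 282 of the highest 1000 (28.2%). For SIN3B they held 48 (9.6%) and 163 (16.3%). The choice of sites left out REST peaks with a further cofactor, whose median percentiles were 93.7 for RCOR3 and 91.0 for SIN3B. Scarcity at the top of both lists is thus partly built into that choice. The lists counted here also keep 15 RCOR3 and 24 SIN3B peaks of the chromosome X stretch, where REST peaks were left out.

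Scores of the cofactors took few values, which limits how finely sites can be ordered. The 563 sites had 215 different REST scores, but only 60 for RCOR3 and 73 for SIN3B, and 40 sites shared the RCOR3 score of 13.38.

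Site by site, REST stood above both cofactors in percentile at 338 of the 563 sites (60.04%, 55.9 to 64.1%). It exceeded RCOR3 at 390 and SIN3B at 457, and RCOR3 exceeded SIN3B at 332. A percentile depends on the length and make-up of its list, so these counts compare positions in lists and not amounts of protein. In all, 161 sites (28.6%, 24.9 to 32.5%) were in the highest 25% of all 3 lists, 85 in that of REST and RCOR3 but not SIN3B, 48 in that of REST and SIN3B but not RCOR3, and 98 in that of REST alone. Only 12 sites were in the highest 25% for both cofactors but not for REST, and 107 were in none.

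**Figure D2:**
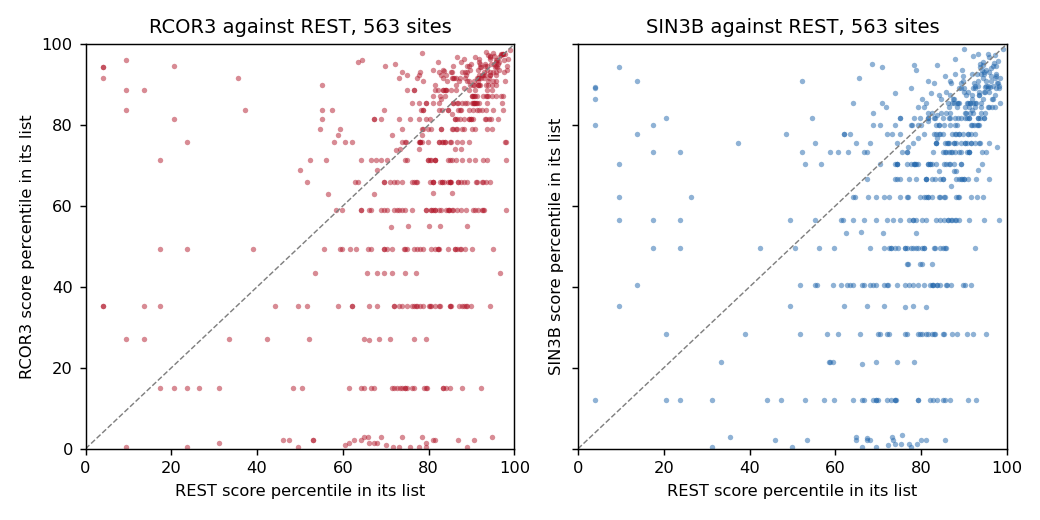
Score percentile of the RCOR3 peak (left) and of the SIN3B peak (right) against that of the REST peak (x axes) at the 563 sites, with 1 point per site and a dashed line where both are equal. Most points lie at high REST percentiles and below the line (390 sites for RCOR3, 457 for SIN3B), and the horizontal rows are sites with tied cofactor scores.

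Over the 563 sites, which are not replicates, the percentiles of the 3 lists moved together. Spearman's rho was 0.54 for REST with RCOR3, 0.55 for REST with SIN3B and 0.44 for RCOR3 with SIN3B. In the lowest quartile of the sites by REST score (8.89 to 37.93) the median RCOR3 score was 12.55 and the median SIN3B score 13.26. In the highest quartile (69.94 to 212.18) they were 21.75 and 23.21. All points share the same 3 libraries, and each site has 1 local base composition for all of them, whose part in the relation was not tested.

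The single highest site by REST score was also first by RCOR3 score and second by SIN3B score. At chr16:95202731-95202771 the REST score was 212.18 (rank 31), the RCOR3 score 44.33 (rank 57) and the SIN3B score 65.49 (rank 63), and all 3 peaks occupied the same 40 bp. The next by REST score were less even. At chr6:84639971-84640031 a REST score of 165.35 (rank 47) went with 30.95 for RCOR3 (rank 132) and 23.21 for SIN3B (rank 745). At chr8:89315671-89315711 a REST score of 147.57 (rank 58) went with an RCOR3 score of 15.89, which is the median of the 563 sites, and a SIN3B score of 27.36 (rank 533). The sites at chr11:55654331-55654371 and chr7:117428031-117428071 completed the 5 highest by REST, with REST scores of 156.46 and 151.13.

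Other sites were led by a cofactor. The second highest RCOR3 score, 40.14 (rank 69), was at chr14:78950171-78950211, where the REST score was 85.34 (rank 204) and the SIN3B score 20.72 (rank 940). The third, 38.47, was at chr18:36130791-36130831, where REST scored 45.04 (rank 667), below its median over the sites, and SIN3B 36.47 (rank 273). The highest SIN3B score, 66.32 (rank 59), was at chr13:53955751-53955791 with a REST score of 68.75 (rank 309) and an RCOR3 score of 19.24 (rank 508). SIN3B also ranked high, at 124 with a score of 50.57, at chr4:44725571-44725611, where REST scored 101.35 and RCOR3 21.75. Sites high in all 3 lists at once were led, after the first site on chromosome 16, by chr2:171733431-171733471 (REST rank 83, RCOR3 rank 90, SIN3B rank 146) and chr14:78504011-78504051 (REST rank 132, RCOR3 rank 144, SIN3B rank 165).

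At the other extreme, some firm REST peaks carried cofactor peaks at or near the bottom of their lists. At chr13:42722711-42722751 the REST score was 43.86 (percentile 77.7), whereas the RCOR3 score of 9.2 and the SIN3B score of 9.12 were the lowest of their lists. At chr6:103719851-103719891 a REST score of 41.49 went with 9.2 for RCOR3 and 10.5 for SIN3B, and at chr5:65746211-65746291 a REST score of 49.19 went with 10.04 and 9.95. The midpoints at these 3 sites were nevertheless within 40 bp of each other.

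The 3 proteins were mapped close to each other at most sites. All starts in the lists lie on a 20 bp grid, so midpoints differ in steps of 10 bp. The median distance from the REST midpoint was 20 bp for RCOR3 (quartiles 10 and 50 bp) and 20 bp for SIN3B (quartiles 10 and 40 bp), although the choice of sites allowed anything under 400 bp. RCOR3 lay within 50 bp of REST at 440 sites (78.2%, 74.5 to 81.5%) and SIN3B at 444 (78.9%, 75.3 to 82.2%). Other REST peaks with these cofactors had similar shares. RCOR3 was within 50 bp at 72.7% with RCOR3 only and 77.0% with a further cofactor. SIN3B was within 50 bp at 75.8% with SIN3B only and 81.1% with a further cofactor. The deposited intervals of all 3 peaks shared at least 1 bp at 381 sites (67.7%, 63.6 to 71.5%), and at 17 sites all 3 midpoints were equal. Besides the site on chromosome 16 these included chr11:4650451-4650491 (REST 109.05, RCOR3 31.78, SIN3B 24.04) and chr17:91001191-91001231 (REST 106.68, RCOR3 28.44, SIN3B 29.01). They are named here because their midpoints coincide, after their values were seen.

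**Figure D3:**
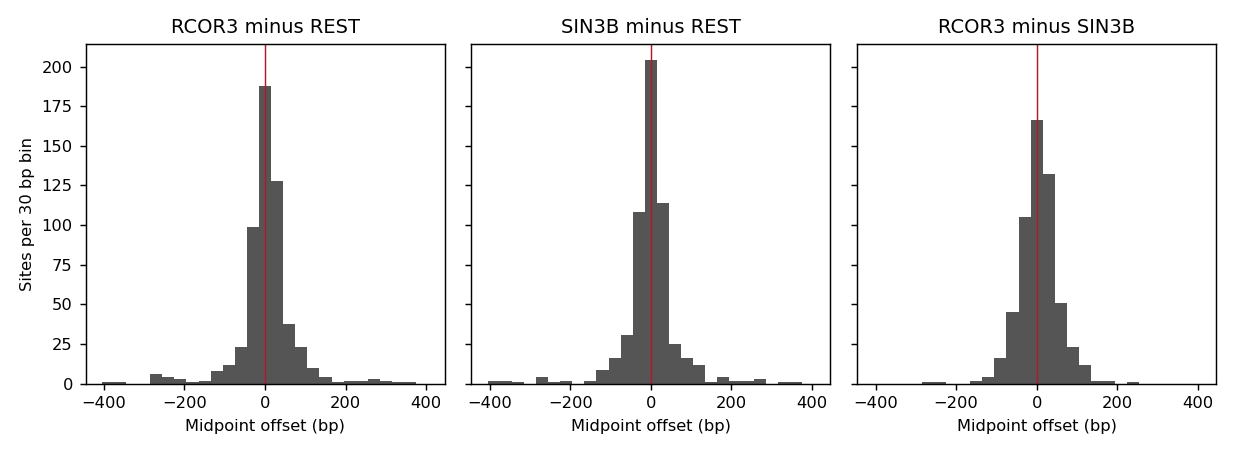
Number of sites (y axis, per bin of 30 bp) by the offset between midpoints in bp (x axis), for RCOR3 minus REST, SIN3B minus REST and RCOR3 minus SIN3B at the 563 sites. All 3 distributions are centred near 0, and the first pair has small groups of sites beyond 200 bp (25 for RCOR3, 20 for SIN3B) where the third has 3.

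RCOR3 and SIN3B also lay close to each other, with the same median distance as each had to REST. Their midpoints were a median of 20 bp apart (quartiles 10 and 50 bp). They were equal at 10.5% of the sites (8.07 to 13.3%), beside 16.9% (13.9 to 20.2%) for RCOR3 with REST and 19.0% (15.8 to 22.5%) for SIN3B with REST. They were within 20 bp at 50.1%, beside 53.1% for RCOR3 and 59.0% for SIN3B to REST, within 100 bp at 538 sites (95.6%, 93.5 to 97.1%) and beyond 200 bp at 3. This distance was not bounded directly by the choice of sites. Where neither cofactor midpoint equalled that of REST, both lay on the same side of it at 247 of 378 sites (65.3%, 60.3 to 70.1%). Both offsets share the REST midpoint, so separate scatter of the 3 midpoints can also put both cofactors on the same side at most sites. Whether the cofactors shift together was not tested. At the 336 sites with 3 different midpoints, REST was the middle one at 131 (39.0%, 33.7 to 44.4%), SIN3B at 109 (32.4%) and RCOR3 at 96 (28.6%). RCOR3 lay at a higher coordinate than REST at 268 sites and at a lower one at 200, whereas SIN3B was split evenly, 228 and 228. The strand of the underlying element was not used here, so a side has no orientation.

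The same pair of proteins was less closely placed away from REST. At 276 RCOR3 peaks with a SIN3B peak but no REST midpoint closer than 400 bp, the median distance was 70 bp and 43.5% were within 50 bp, against 20 bp and 78.9% at the 563 sites. Peaks there had lower scores, with a median percentile of 49.3 for RCOR3 and 49.5 for SIN3B. Among pairs in which both peaks were in the lower 50% of their lists, the median distance was 70 bp at 103 pairs away from REST, of which 39 (37.9%) were within 50 bp. It was 30 bp at 75 of the 563 sites, of which 59 (78.7%, 67.7 to 87.3%) were within 50 bp. At the 243 REST peaks with a further cofactor the distance between RCOR3 and SIN3B was again a median of 20 bp, with 77.4% within 50 bp. The rules for these sets differ. At REST peaks both cofactor midpoints also had to lie less than 400 bp from the same REST midpoint.

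Sites with distant cofactor peaks were mostly weak REST peaks beside a stronger one. Of the 25 sites where RCOR3 or SIN3B lay beyond 200 bp, 22 had another REST midpoint less than 400 bp away, as did 45 of all 563 sites (7.99%) and 125 of the 3080 REST peaks (4.06%). In 22 cases both neighbouring REST peaks belonged to the 563 sites. The weaker REST peak of the 22 had a median score of 10.08 and lay a median of 265 bp from its RCOR3 midpoint and 260 bp from its SIN3B midpoint, while its stronger neighbour scored between 20.74 and 104.61. In 21 of the 22 cases both REST peaks were matched to the same RCOR3 peak and the same SIN3B peak. Joining neighbours less than 400 bp apart leaves 541 separate loci, and the next closest sites were 430 bp apart.

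**Figure D4:**
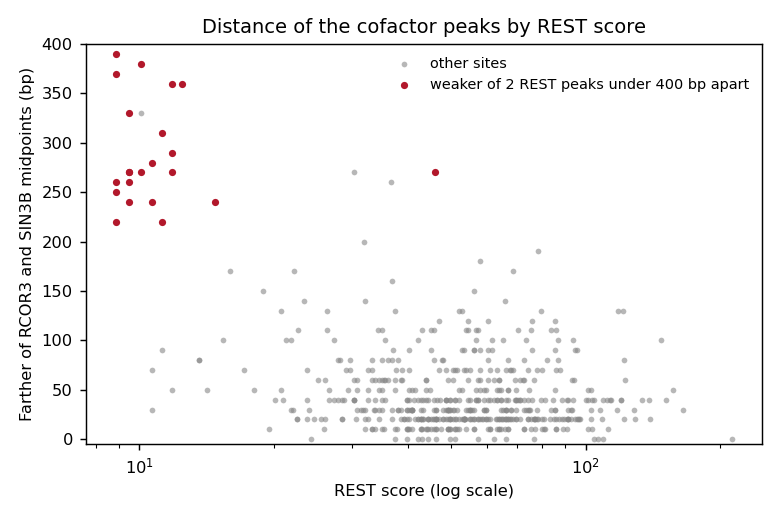
Distance in bp from REST to the farther of the RCOR3 and SIN3B midpoints (y axis) against the REST score (x axis, log scale) at the 563 sites. Red points are the weaker of 2 REST peaks less than 400 bp apart, and they hold nearly all distances beyond 200 bp, while the 518 sites without a REST neighbour (among the grey points) have 3 RCOR3 and 1 SIN3B distance beyond 200 bp.

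These weaker neighbours were frequent among the sites with low REST scores. Of the 39 sites in the lower 50% of the REST list, 21 were the weaker of 2 neighbouring REST peaks, against 1 of the 524 in the upper 50%. The other 18 had a median REST score of 15.7 and low cofactor scores, with a median percentile of 21.0 for RCOR3 and 24.8 for SIN3B, and RCOR3 was within 50 bp at 11 of them. At chr15:72517591-72517651 a REST score of 8.89 lay 390 bp from a REST peak of 104.61, and the RCOR3 score of 26.76 and SIN3B score of 26.94 matched to it were centred on that stronger peak. The site at chr6:113247531-113247591, with a REST score of 8.89, likewise lay 350 bp from a REST peak of 76.45, and chr4:152915151-152915271, with the same score, lay 260 bp from one of 77.05. Another site with that score, chr9:64464951-64465031, lay 240 bp from a REST peak of 91.27. The first of these, at 390 bp, was also the one closest inside the limit, followed by chr3:33334951-33334991 at 380 bp. Just outside it, at 400 bp, were chr11:23031791-23031831 (REST score 44.45), chr4:101048371-101048411 (15.11) and chr5:112959511-112959551 (8.89).

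Peaks of the cofactors that the sites lack were absent closer than 400 bp by the choice of sites. Beyond that, a peak of SIN3A, RCOR1 or RCOR2 lay within 1000 bp of 5 sites (0.888%, 0.289 to 2.06%) and within 5000 bp of 11 (1.95%, 0.979 to 3.47%). Among the other 2218 REST peaks without these cofactors in reach, the shares were 0.541% (0.280 to 0.943%) and 1.89% (1.37 to 2.55%). The closest was a SIN3A midpoint 480 bp from chr11:74989331-74989371, where REST scored 24.3, RCOR3 15.05 and SIN3B 13.26, and a REST peak of 56.6 lay 400 bp away. An RCOR1 midpoint lay 700 bp from chr12:87873431-87873471, which itself was 700 bp from a REST peak of 126.83. The RCOR2 midpoint closest to a site was 720 bp from chr9:64464951-64465031, one of the weaker neighbours above. The SIN3A, RCOR2 and RCOR1 lists held 1314, 459 and 84 peaks, so a missing peak in these shorter lists is not a measure of missing protein. Without SIN3A as a ground for exclusion there were 711 sites, without RCOR2 580 and without RCOR1 577.

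REST peaks at the sites were mostly of the smallest width. The REST peak was 40 bp wide, the smallest width in the list, at 440 of the 563 sites (78.2%, 74.5 to 81.5%). This was so at 57.8% of REST peaks with no cofactor, 69.5% of those with RCOR3 only, 65.6% of those with SIN3B only and 81.9% of those with a further cofactor. The RCOR3 peak was 40 bp wide at 259 sites (46.0%), beside 48.7% with RCOR3 only and 49.8% with a further cofactor, and its median width of 60 bp equalled that of the whole RCOR3 list. The SIN3B peak was 40 bp wide at 306 sites (54.4%), beside 51.0% with SIN3B only and 66.3% with a further cofactor. REST peaks of at least 100 bp were found at 52 sites, and across sites the REST width went with the distance to the cofactors (Spearman's rho 0.32 for RCOR3 and 0.37 for SIN3B). Distances run between midpoints, so a wide REST interval can lengthen them by itself. Its part in the relation was not tested. The widths of RCOR3 and SIN3B peaks were nearly unrelated to each other (rho 0.07).

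The sites were unevenly spread over the chromosomes, with few on chromosomes 8 and 9. On the other autosomes 538 of 2709 REST peaks (19.9%, 18.4 to 21.4%) were such sites, and single chromosomes ranged from 14.1% on chromosome 13 to 24.0% (61 of 254) on chromosome 5. Chromosome 8 had 11 of 164 (6.71%, 3.40 to 11.7%) and chromosome 9 had 14 of 182 (7.69%, 4.27 to 12.6%). With the better-scoring 50% of every list the shares were 14.3% on chromosome 8, 10.3% on chromosome 9 and 24.3% on the other autosomes. Chromosome X had 0 of 24 outside the stretch left out, with an exact upper limit of 14.2%, or 12.5% counted as 3 peaks of the 24. Chromosome Y held 1 REST peak, without a cofactor.

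**Figure D5:**
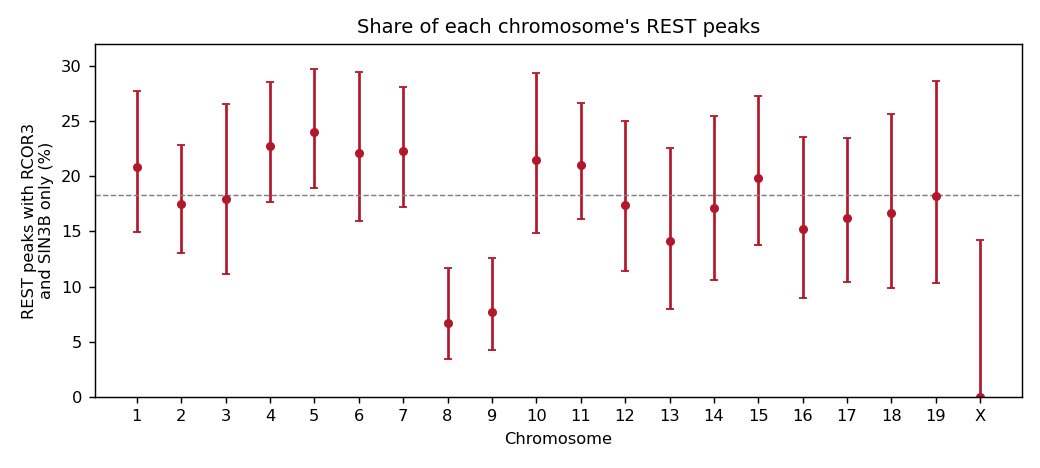
Share of each chromosome's REST peaks (y axis, %) that had RCOR3 and SIN3B only, with exact 95% Clopper-Pearson intervals as bars and the share over all chromosomes (18.3%) as a dashed line. Chromosomes 8 and 9 stand at 6.71 and 7.69%, below the other autosomes at 14.1 to 24.0%, and chromosome X has 0 of 24.

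On both chromosomes RCOR3 was the scarcer partner. SIN3B was present at 42.1% of the REST peaks of chromosome 8, 40.7% of chromosome 9 and 38.5% of the other autosomes, whereas RCOR3 was present at 17.1%, 14.8% and 34.9%. REST peaks with SIN3B only stood at 23.8% on chromosome 8 and 23.1% on chromosome 9 against 9.93%. REST peaks with a further cofactor beside RCOR3 and SIN3B were at 7.93%, 7.14% and 7.94%. REST scores were not lower throughout, with a median of 18.08 on chromosome 8, 23.41 on chromosome 9 and 21.34 on the other autosomes.

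Among REST peaks of like score, the shares on chromosomes 8 and 9 were lower in the upper part of the REST list. At REST percentiles above 80, RCOR3 and SIN3B only were found at 7 of 22 REST peaks on chromosome 8 (31.8%, 13.9 to 54.9%), 11 of 41 on chromosome 9 (26.8%, 14.2 to 42.9%) and 313 of 558 on the other autosomes (56.1%, 51.9 to 60.3%). On chromosome 8 that interval reaches the lower part of the interval of the other autosomes. At percentiles from 60 to 80 they were found at 4 of 31 on chromosome 8 (12.9%, 3.63 to 29.8%), 0 of 36 on chromosome 9 (exact upper limit 9.74%, or 8.33% counted as 3 peaks of the 36) and 165 of 546 elsewhere (30.2%, 26.4 to 34.3%). In this range too the interval of chromosome 8 overlaps that of the other autosomes. None of the 36 REST peaks of chromosome 9 had an RCOR3 peak, while 21 had SIN3B. At percentiles up to 60, where such sites were rare on every chromosome, the intervals overlapped: 0 of 111 on chromosome 8 (exact upper limit 3.27%), 3 of 105 on chromosome 9 (2.86%, 0.593 to 8.12%) and 60 of 1605 elsewhere (3.74%, 2.86 to 4.79%). The sites that chromosomes 8 and 9 did have carried RCOR3 scores with medians of 14.22 and 13.38, beside 15.89 over the other autosomes. Single other autosomes had medians from 13.38 on chromosome 3 to 20.49 on chromosome 16, so chromosome 9 equalled the lowest. The upper quartiles were 16.7 on chromosome 8, 15.05 on chromosome 9 and 20.91 on the other autosomes. The highest RCOR3 scores at sites were 19.24, 18.4 and 44.33 in the same order. On chromosome 9 the median REST score was 75.6 and the median SIN3B score 23.21 over 14 sites, beside 51.56 and 16.58 over the 538 sites of the other autosomes. The 11 sites of chromosome 8 were nearer the other autosomes, with medians of 55.12 for REST and 17.41 for SIN3B. The RCOR3 line was separate from the cells used for REST and from the SIN3B line, so line and protein cannot be told apart here.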

How the data were processed

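The data are 6 lists of ChIP-seq peaks, 1 per protein, with 4 columns: chromosome, start, end and a score. The score was assigned by the authors to each deposited peak. The sources used here do not give its meaning, the aligner, the caller, its control or the sequencing depth. Build mm8 is taken from the names of the deposited lists. Groups follow the sample titles.

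Each REST peak was matched to peaks of the 5 cofactors by midpoint distance (less than 400 bp). Where several peaks were in reach, the nearest was used. Percentiles are mean ranks within each whole list. Deciles of the REST list are steps of 10 percentile points, so ties make them unequal in size. The matching was tested on simulated data with planted sites. Python 3.11.15, pandas 2.3.3 and SciPy 1.17.1 were used. The sites, lists of values and comparisons were chosen with earlier results of these data known. Named sites follow a rule: the 5 highest by REST score, the 3 highest by RCOR3, SIN3B and by worst percentile, the 3 lowest by REST score, the 3 with the largest percentile differences in each direction, the 3 nearest the limit on either side and the 3 nearest to an excluded cofactor.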

Additional observations from a re-analysis of the deposited data

How the results depend on the processing

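The 11 alternatives gave 124 values, of which 115 stayed close to the reported value. For shares, close meant inside the Clopper-Pearson interval. For medians it meant inside an exact 95% interval from the ordered values of the sites, taken as independent. For numbers of sites it meant at most 1.5 times apart, and for rank correlations at most 0.1 apart. No rank correlation changed sign, and the other values cannot be negative. Part of the tally had little or no room to change. Keeping the chromosome X stretch gave the same 563 sites, so its 11 values were unchanged. Taking the highest-scoring cofactor peak gave 8 values near the reported ones. It could act only where several peaks were in reach, at 2 sites for RCOR3 and 1 for SIN3B. With the better-scoring 50% of every list there were 354 sites, 302 of them among the 563. Their median percentiles were 89.3 for REST, 85.5 for RCOR3 and 81.6 for SIN3B, and they made up 14.3% of the REST peaks of chromosome 8 and 24.3% of those of the autosomes other than 8 and 9. That alternative removes low scores by construction. Without SIN3A as a ground for exclusion, an alternative added after seeing the data, as were those without RCOR1 or RCOR2, the median percentiles were 84.5 for REST, 78.9 for RCOR3 and 74.5 for SIN3B. The number of sites was 538 with midpoints within 200 bp, 570 within 1000 bp, 425 with intervals as deposited and 518 without REST peaks that have a REST neighbour. No paired analysis was possible because each protein had 1 library. With read depth unknown, a site without a peak of a cofactor cannot be told apart from one whose signal fell under the authors' threshold.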
